A study of Mus musculus with 8 samples.

Results

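The secreted and membrane-bound proteases that remodel the extracellular matrix, together with their inhibitors, were examined for acetylation of histone H3 at lysine 56 (H3K56ac) in mouse muscle stem cells (MuSCs). The group was defined by gene symbol. It held every protein-coding gene of the GENCODE annotation (build mm10) named Mmp, Adamts or Timp with a number, or Adamtsl with a number. This gave 50 of 21938 protein-coding genes, namely 22 Mmp, 19 Adamts, 5 Adamtsl and 4 Timp genes. For each gene the peaks within 3 kb of an annotated transcription start site (TSS) were collected as promoter peaks, and the width of the widest one and the share of the gene body under peaks were recorded.

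The study mapped H3K56ac by ChIP-seq, the sequencing of DNA recovered with an antibody against the mark, in freshly isolated MuSCs of C57BL/6 mice. Its 8 libraries fell into 4 groups, with 2 H3K56ac and 2 input libraries from Control mice and the same number from Sirt6mKO mice. The paper calls the cells of its control H3K56ac map wild type. Elsewhere it gives the controls of Sirt6mKO mice as Sirt6 fl/fl without Pax7-ICNCre, so the alleles of these Control mice are not certain. Sirt6mKO mice carried Pax7-ICNCre and floxed Sirt6 alleles (Sirt6 fl/fl), and the paper also names a ROSA26-YFP reporter strain in their breeding. Their Cre recombinase was constitutively active under the Pax7 promoter, so that the deletion was not limited to adult MuSCs but extended to the muscle lineage formed from Pax7-expressing cells. After staining against Sca1, CD45 and CD31, cells were sorted for Integrin-a7 and CD34, or for the GFP or YFP of reporter mice. The route used for each of these libraries is not stated. The deposited data examined here are a single list of 105600 merged intervals in which no column names a genotype, a library or a strength. It is not known which libraries or genotypes entered the list. The values below therefore describe only where a peak was listed, and Sirt6mKO was not compared with Control. There are no replicate values and no test was made, and sequencing depth is not known from intervals alone. A peak also cannot tell apart strong acetylation in a few cells from weaker acetylation in many.

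Matrix metalloproteinases (MMPs) are zinc-dependent enzymes that cut collagens, gelatin, laminins and other matrix proteins, and some are anchored in the cell membrane. ADAMTS proteases are secreted enzymes with thrombospondin repeats that cleave proteoglycans such as versican or trim procollagens, whereas ADAMTS-like proteins carry the repeats without a protease domain. Tissue inhibitors of metalloproteinases (TIMPs) bind the active site of these enzymes and block it. In skeletal muscle, MuSCs lie between the myofiber and its basement membrane, and matrix proteases are known for their part in the remodelling of that niche during regeneration.

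Promoter sequences from RefSeq (assembly GRCm38.p6, the build of the peak list) are shown first. The promoters of a gene cluster without promoter peaks differed in composition and motifs from those of the other members. The 8 stretches below are the 150 bases that end just before the first annotated start of each gene, printed 5′ to 3′ on the strand of the gene. None of them overlaps an annotated exon. Capitals mark the AP-1 site TGANTCA, the TATA box TATAAA or its reverse complement, and the GC box GGGCGG or its reverse complement. The first 4 genes had a peak over the start, and Timp3 was chosen as the gene with the widest promoter peak and Mmp14, Adamts1 and Adamtsl4 as members of the other families. The last 4 genes, Mmp13, Mmp3, Mmp10 and Mmp8, are a selection from a gene cluster on chromosome 9, and none of them had a peak. They are not all adjacent, since Mmp12 and Mmp1b lie between Mmp13 and Mmp3.
Timp3, chr10:86300222-86300371, plus strand: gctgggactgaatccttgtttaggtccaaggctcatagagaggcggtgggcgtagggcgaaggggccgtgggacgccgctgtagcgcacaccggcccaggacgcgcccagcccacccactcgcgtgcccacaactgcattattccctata
Adamts1, chr16:85803114-85803263, minus strand: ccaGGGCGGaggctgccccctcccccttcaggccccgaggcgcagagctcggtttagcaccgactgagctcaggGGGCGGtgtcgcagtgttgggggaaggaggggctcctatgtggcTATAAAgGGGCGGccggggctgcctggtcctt
Adamtsl4, chr3:95687918-95688067, minus strand: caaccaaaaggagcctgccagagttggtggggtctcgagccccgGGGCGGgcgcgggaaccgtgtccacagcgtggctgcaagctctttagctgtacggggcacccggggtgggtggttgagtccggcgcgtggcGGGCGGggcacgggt
Mmp14, chr14:54431448-54431597, plus strand: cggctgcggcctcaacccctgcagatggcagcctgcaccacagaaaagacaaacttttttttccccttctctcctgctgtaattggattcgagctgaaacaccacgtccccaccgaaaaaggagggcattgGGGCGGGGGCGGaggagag
Mmp13, chr9:7272364-7272513, plus strand: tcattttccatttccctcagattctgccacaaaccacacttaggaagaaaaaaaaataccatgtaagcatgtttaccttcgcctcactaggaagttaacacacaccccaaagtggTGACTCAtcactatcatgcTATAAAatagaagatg
Mmp3, chr9:7445672-7445821, plus strand: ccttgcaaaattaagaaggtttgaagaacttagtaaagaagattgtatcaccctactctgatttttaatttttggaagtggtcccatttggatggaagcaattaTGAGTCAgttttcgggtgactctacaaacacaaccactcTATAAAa
Mmp10, chr9:7502192-7502341, plus strand: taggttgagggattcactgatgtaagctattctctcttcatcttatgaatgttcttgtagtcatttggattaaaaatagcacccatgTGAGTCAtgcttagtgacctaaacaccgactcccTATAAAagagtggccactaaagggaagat
Mmp8, chr9:7558279-7558428, plus strand: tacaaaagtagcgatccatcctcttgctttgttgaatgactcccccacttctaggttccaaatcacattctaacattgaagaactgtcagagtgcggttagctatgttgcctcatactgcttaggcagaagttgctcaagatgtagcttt

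The stretches of Adamts1, Adamtsl4 and Mmp14 carried GC boxes, and Adamts1 also a TATA box. Those of Mmp13, Mmp3 and Mmp10 carried an AP-1 site followed by a TATA box and no GC box. Neither stretch of Timp3 and Mmp8 held a whole match to any of the 3 motifs. The longer RefSeq window of Timp3, counted further below, held 2 GC boxes, neither of them whole within the printed stretch. In Mmp8 a reverse TATA box began 3 bases before the start and ran across it, so that only its first letters stand in the printed stretch.

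In all, 35 of the 50 genes (70%) had a promoter peak, against 67.8% of all protein-coding genes. A Wilson 95% confidence interval, which covers counting error only and treats genes as if they were independent, ran from 56.2% to 80.9%. A TSS lay under a peak in 34 genes (68%), compared with 62.1% of coding genes. The median width of the widest promoter peak was 3798 bp among the 35 genes and 3430 bp among the coding genes that had one. In 10 genes (20%) it reached 5 kb, against 16.5% of coding genes. Peaks covered a median of 11.2% of the gene body, compared with 7.82% over all coding genes, and at least 50% of the body in 6 genes (12%), against 9.9%. No peak touched the gene body of 11 genes (22%), whereas 30.9% of coding genes lacked one. As a whole the group therefore lay close to the background on these counts. The widest promoter peaks of the members ran from 802 to 13734 bp, and those of all coding genes from 171 to 53370 bp. The chart of widest promoter peaks gives the value of each gene.

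**Figure D1:**
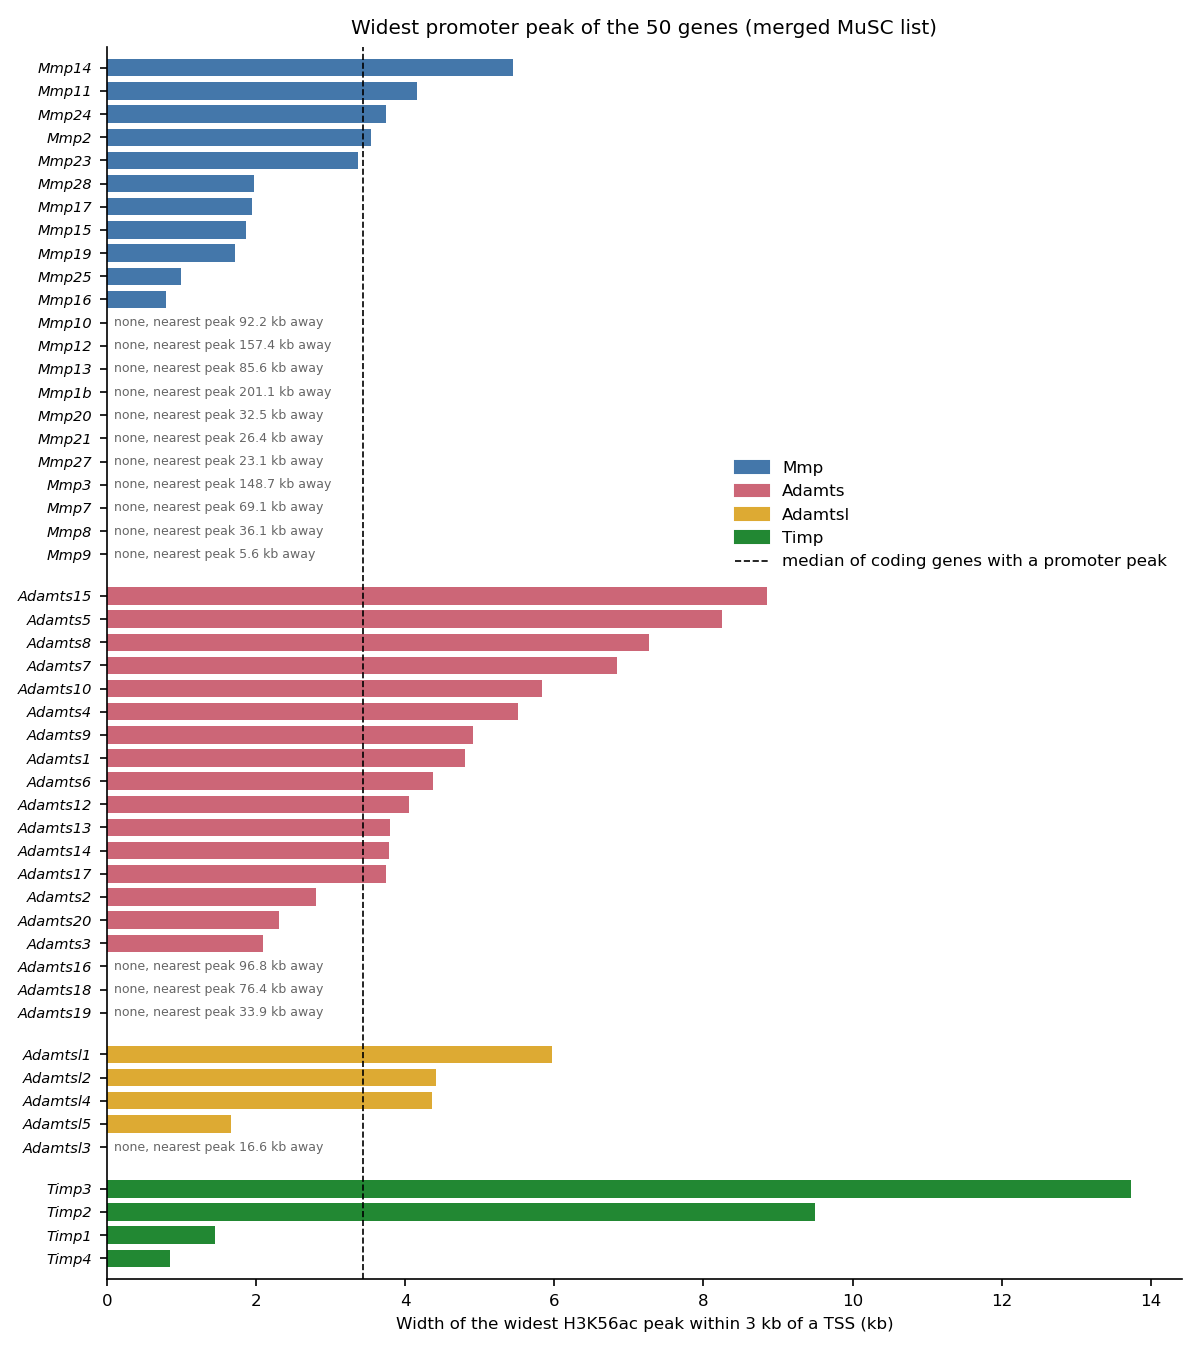
Width in kb of the widest H3K56ac peak within 3 kb of a TSS for each of the 50 genes, with bars coloured by family and sorted by width. Bars run from 0.8 kb at Mmp16 to 13.7 kb at Timp3, 15 genes have none, and the dashed line marks the median of the coding genes with a promoter peak.

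Divided by family, 11 of 22 Mmp genes (50%, interval 30.7% to 69.3%), 16 of 19 Adamts genes (84.2%, 62.4% to 94.5%), 4 of 5 Adamtsl genes (80%, 37.6% to 96.4%) and 4 of 4 Timp genes (100%, 51% to 100%) had a promoter peak. The median widest promoter peak was 1966 bp in the Mmp, 4584 bp in the Adamts, 4382.5 bp in the Adamtsl and 5474 bp in the Timp family. The intervals of the families overlap, and the families were not tested against each other. All 11 genes without a peak in the body were Mmp genes. The gene nearest to the 3 kb limit on the outside was Mmp9, whose closest TSS lay 5627 bp from a peak. On the inside it was Adamts13, at 873 bp, while in the other 34 genes a peak overlapped a TSS.

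The 2 widest promoter peaks of the group belonged to the inhibitors Timp3 and Timp2. Timp3 encodes a TIMP that binds to the matrix and inhibits both MMPs and ADAMTS proteases. It had a promoter peak of 13734 bp (chr10:86302715-86316448), wider than that of 98.5% of coding genes with a promoter peak. This peak did not cover the start of the principal transcript but began 2343 bp downstream of it, in the first intron, and a separate peak of 1438 bp lay over the start. The gene held 14 peaks that covered 75.3% of its 49.1 kb, a share above that of 99.2% of the 1888 coding genes of similar length. Its first intron of 37.4 kb was covered to 80.3% by 12 peaks, among them another wide one of 5936 bp. Timp3 lies within the gene for synapsin III (Syn3), so that these peaks cannot be assigned to Timp3 alone by position.

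Timp2, whose product takes part in the activation of pro-MMP2 by membrane-type MMPs besides inhibiting MMPs, had a promoter peak of 9497 bp (chr11:118347194-118356690). The peak started 1184 bp upstream of the principal TSS and reached 8312 bp into the gene. Its 10 body peaks covered 64.5% of 54.7 kb, above 97.6% of 1778 genes of similar length, and the first intron of 34.8 kb was covered to 95.4%. A further peak of 9515 bp spanned an exon near the end of that intron. The coding gene Cep295nl overlaps Timp2.

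The remaining inhibitors had narrow peaks over their starts. That of Timp1, an inhibitor induced by inflammatory signals, measured 1451 bp (chrX:20869686-20871136) and that of Timp4, which is expressed mainly in heart and muscle tissue, 847 bp. Of the coding genes with a promoter peak, 12.8% had a narrower widest peak than Timp1 and 5.3% a narrower one than Timp4. Peaks covered 21.2% of Timp1 and 11% of Timp4, and both genes, like Timp3, overlap a synapsin gene (Syn1 and Syn2). Timp3 and Timp2 thus stood apart from Timp1 and Timp4 in both width and coverage.

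**Figure D2:**
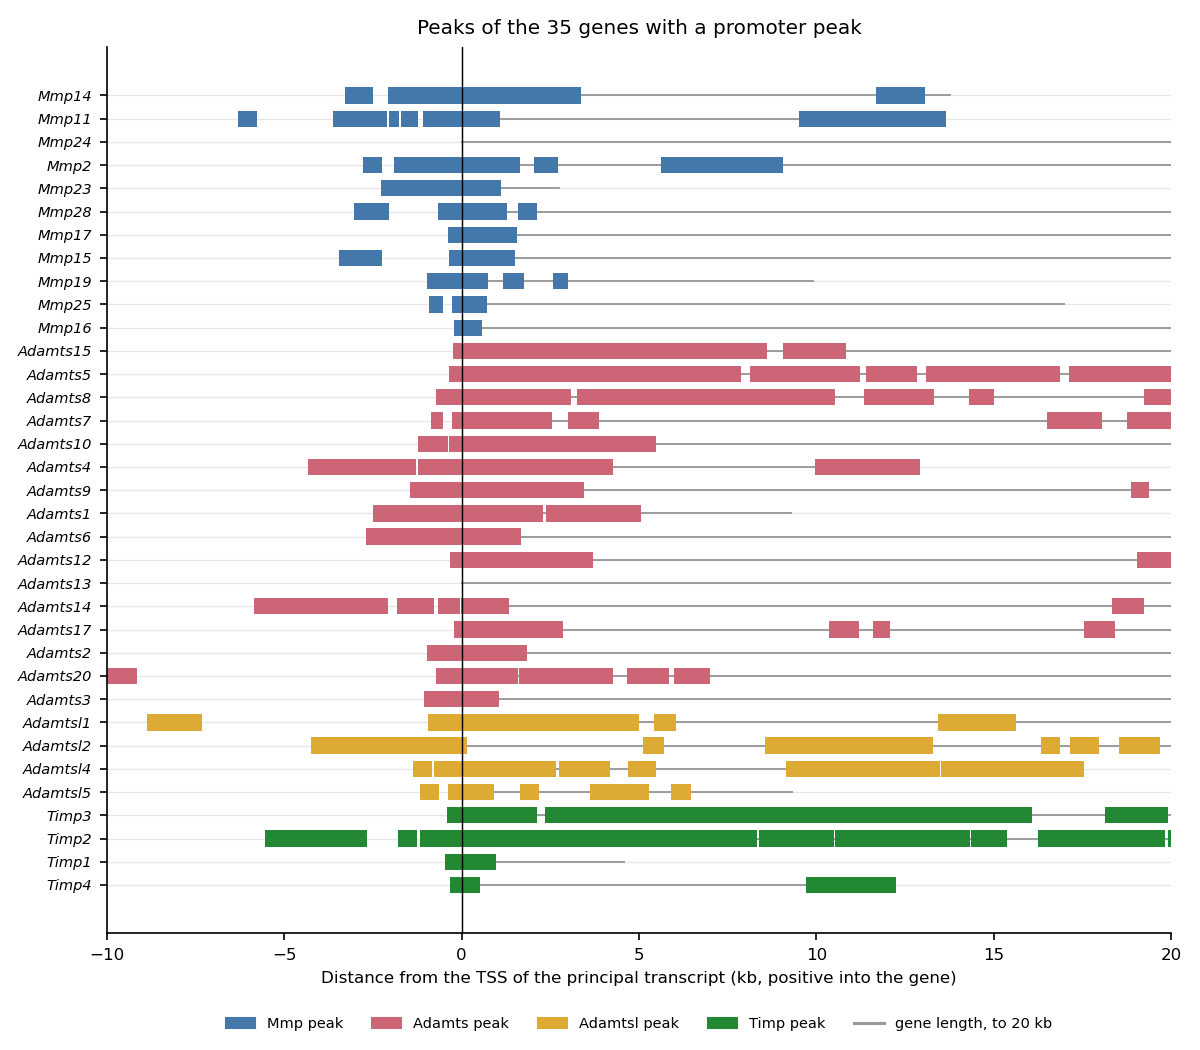
Peaks of the 35 genes with a promoter peak by distance in kb from the TSS of the principal transcript, from 10 kb before to 20 kb after, with positive values into the gene. Coloured blocks are peaks and grey lines the gene, and series of blocks fill Timp3, Timp2 and Adamts5 while Mmp16 shows a single narrow block at the start.

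Among the proteases, the ADAMTS proteoglycanases were covered most. These enzymes cleave the large proteoglycans versican and aggrecan. All 7 had a promoter peak, with a median width of 5515 bp and a median coverage of 44.6%. Adamts15 had the widest promoter peak of the proteases with 8846 bp (chr9:30913839-30922684), which ran from 232 bp before the TSS to 8613 bp into the gene and was wider than in 94.4% of coding genes with a promoter peak. That of Adamts5, a main aggrecan- and versican-cleaving enzyme, measured 8249 bp (chr16:85893948-85902196). Its 7 body peaks covered 57.7% of 45.7 kb (above 97.2% of 1931 genes of similar length), including 94.2% of the first and 96.1% of the second intron. At Adamts8 the widest promoter peak of 7273 bp (chr9:30945801-30953073) lay 3239 bp inside the gene beside a peak of 3800 bp over the start. Coverage of Adamts8 was 70.7%, above 98.6% of 2421 genes of similar length.

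Adamts4, which cleaves aggrecan, had a promoter peak of 5515 bp, and a TSS of another gene also lay under this peak. In Adamts1, another versican-cleaving enzyme, a peak of 4797 bp was centred near the start, and peaks covered 53.6% of the gene. Adamts9 had a peak of 4912 bp over its start and 17 peaks along its 171 kb, which covered 13.1%. The narrowest promoter peak of the proteoglycanases, 2313 bp, belonged to Adamts20, a relative of Adamts9. Wider peaks of 5310 and 10030 bp lay within Adamts20 upstream of the principal transcript, where only other transcripts of the gene are annotated.

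The procollagen N-propeptidases remove the amino-terminal propeptide of fibrillar procollagens. All 3 had a promoter peak, and their widths were moderate. Adamts14 had a peak of 3776 bp that lay wholly upstream, between 5839 and 2064 bp before the start, and a peak of 1362 bp at the start. The promoter peaks of Adamts2 and Adamts3 measured 2813 and 2100 bp and covered the start. Coverage was 11.8% in Adamts14, 8.22% in Adamts2 and 1.88% in Adamts3, against medians of 7.11%, 5.14% and 5.14% over coding genes of similar length. Adamts2 held 11 body peaks, the widest of which (5378 bp) lay over an exon and began 65582 bp inside the gene.

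Of the other 9 Adamts genes, 6 had a promoter peak. Adamts10, which binds fibrillin microfibrils, had a peak of 5835 bp at its start. The widest promoter peak of Adamts7, an enzyme that cleaves cartilage oligomeric matrix protein, measured 6839 bp, but it lay at an internal TSS 32.8 kb into the gene, and the peak at the main start was 2801 bp wide. Adamts6, a relative of Adamts10, had a peak of 4371 bp over its start and a coverage of only 2.08%. In Adamts12 a peak of 4053 bp covered the start and 32 peaks lay along the 284 kb of the gene, with 14 in the second and 14 in the third intron. Adamts17, which has been linked to fibrillin, held 28 body peaks, 10 of them in its seventh intron, and its widest promoter peak of 3742 bp belonged to an internal TSS. Coverage was 15.3% and 15% in these long genes, above 78% and 78.6% of genes of similar length. Adamts13 encodes the protease that cuts von Willebrand factor. Its promoter peak of 3798 bp belonged to a TSS at the 3′ end of the gene and contained the TSS of the next gene, Cacfd1, and the principal start lay 7863 bp from a peak.

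Adamts16, Adamts18 and Adamts19 had no promoter peak. Their closest TSS lay 96.8, 76.4 and 33.9 kb from a peak. A few peaks were present inside the genes, namely 4 in Adamts16, 1 in Adamts18 and 1 in Adamts19, and these covered 3.02%, 0.675% and 0.0911% of the body.

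**Figure D3:**
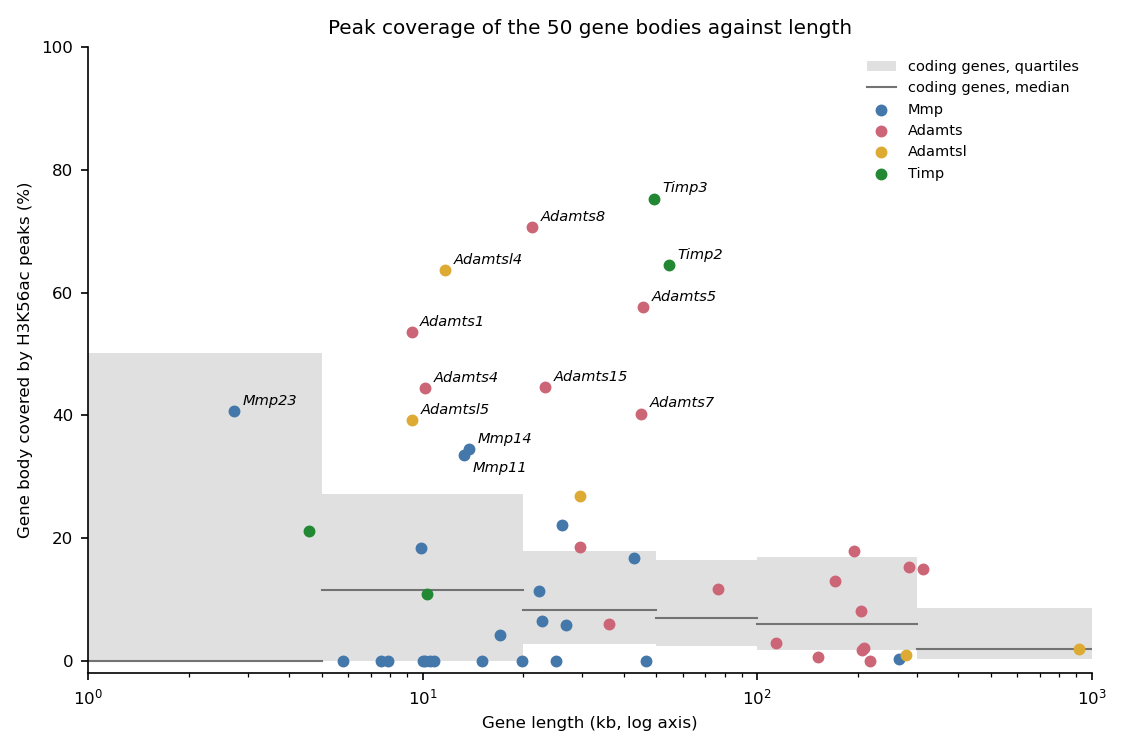
Share of the gene body under H3K56ac peaks in percent against gene length in kb (log axis) for the 50 genes, coloured by family. Grey steps give the median and quartiles of all coding genes by length class, and Timp3 (75.3%), Adamts8 (70.7%), Timp2 (64.5%), Adamtsl4 (63.7%), Adamts5 (57.7%) and Adamts1 (53.6%) lie far above the quartiles of their class.

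Of the ADAMTS-like genes, whose products bind the matrix without cutting it, 4 of 5 had a promoter peak. That of Adamtsl1 measured 5972 bp (chr4:86052955-86058926) and covered the start of the principal transcript. Adamtsl2, which binds fibrillin and a TGF-beta binding protein, had a peak of 4405 bp (chr2:27075135-27079539) that reached only 160 bp into the gene and lay within 3 kb of the TSS of Mymk, the gene for the fusion factor myomaker. In Adamtsl4, which also binds fibrillin, peaks covered 63.7% of the gene, above 96.2% of 2274 genes of similar length. Its widest promoter peak of 4360 bp (chr3:95674427-95678786) lay at an alternative TSS towards the 3′ end, and the peak at the main start was 3437 bp wide. Adamtsl5 had 5 promoter peaks, the widest of 1658 bp. Adamtsl3 had none, and its closest TSS was 16.6 kb from a peak, though 5 peaks covered 1.05% of its 279 kb.

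The MMPs were divided by subgroup. The membrane-type MMPs all had a promoter peak (6 of 6), with a median width of 1908.5 bp. Mmp14, a collagenase of the cell surface that activates pro-MMP2, had the widest promoter peak of the family with 5442 bp (chr14:54429532-54434973). It ran from 2080 bp before to 3361 bp after the start and lay within 3 kb of a TSS of Mrpl52. Peaks covered 34.5% of the gene. The promoter peaks of Mmp15, Mmp17, Mmp25 and Mmp16 covered the start and measured 1865, 1952, 997 and 802 bp. Mmp16, a gene of 266 kb, held no further peak, and its coverage was 0.301%. Mmp24 was an exception, since its peak of 3738 bp (chr2:155803951-155807688) lay at an internal TSS and the principal start was 23571 bp from any peak.

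Of the gelatinases, Mmp2 had a peak of 3545 bp over its start and a coverage of 22.1%, whereas Mmp9 had no peak in its body, and its principal start lay 11794 bp from a peak. Mmp11, or stromelysin-3, was the only one of 4 stromelysins and matrilysins with a promoter peak. A peak of 2159 bp covered its start, while the widest promoter peak of 4161 bp (chr10:75918846-75923006) lay past the 3′ end and contained a TSS of Smarcb1, a subunit of the SWI/SNF remodelling complex. Among the other MMPs, Mmp23, Mmp28 and Mmp19 had promoter peaks of 3373, 1966 and 1717 bp over the start. The peak of Mmp23 lay within 3 kb of a TSS of Mib2. Mmp21 had no peak within 26.4 kb.

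The remaining 9 genes without a promoter peak were neighbours. Mmp13, Mmp12, Mmp1b, Mmp3, Mmp10, Mmp8, Mmp27, Mmp20 and Mmp7 form a cluster of 427 kb (chr9:7272514-7699585). It holds Mmp13, Mmp8 and Mmp1b, grouped here as collagenases, and the stromelysins Mmp3 and Mmp10. The matrilysin Mmp7, the macrophage elastase Mmp12 and the enamel protease Mmp20 also lie in it. A single peak of 1127 bp (chr9:7594557-7595683) was listed in the whole cluster. It lay between genes, 12.7 kb after the end of Mmp27 and 32.5 kb before Mmp20, and 0 of the 9 genes had a peak in the body. The stretch before it was free of peaks over 408 kb, and the stretch behind it over 166 kb. Of the 105579 gaps between neighbouring peaks, 832 (0.79%) were at least as long as the first stretch, and the median gap was 1539 bp. This share counts gaps and not bases. Long gaps hold many more bases each, so the share of the genome in such gaps is larger and was not computed. The distance from the closest TSS to a peak was 201.1 kb for Mmp1b, 157.4 kb for Mmp12, 148.7 kb for Mmp3 and 92.2 kb for Mmp10. For Mmp13, Mmp7, Mmp8, Mmp20 and Mmp27 it was 85.6, 69.1, 36.1, 32.5 and 23.1 kb.

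**Figure D4:**
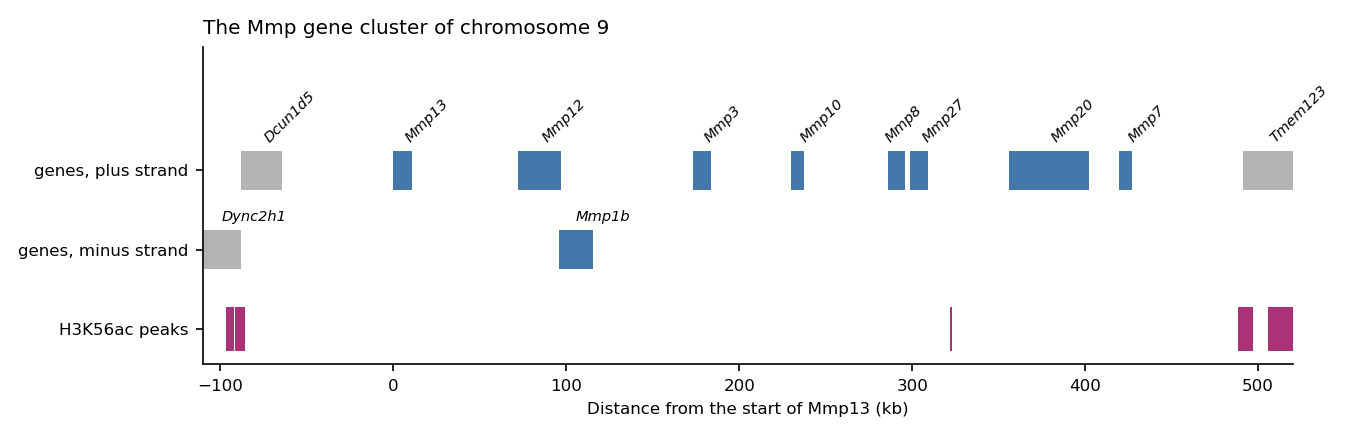
Map of the chromosome 9 cluster by distance in kb from the start of Mmp13, with Mmp genes in blue, neighbouring genes in grey and H3K56ac peaks in purple. The only peak between Mmp13 and Mmp7 stands between Mmp27 and Mmp20, and the next peaks lie near Dync2h1 and Dcun1d5 on the left and near Tmem123 on the right.

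Peaks resumed on both sides of the cluster, with one of 978 bp (chr9:7185982-7186959) on the side of Dync2h1 and Dcun1d5 and one of 8316 bp (chr9:7761196-7769511) on the side of Tmem123. Outside the cluster, 11 of 13 Mmp genes (84.6%) and 35 of all 41 genes (85.4%) had a promoter peak. The cluster was singled out after the values had been seen, so these shares are a description. Reads with several alignments had been removed by the authors, which lowers the chance of a peak in repeated sequence, and the part of this in the empty stretches was not tested.

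Other members also lie side by side, and these pairs were not free of peaks. Adamts8 and Adamts15 point away from each other with 20.1 kb between their starts. That interval held 3 peaks over 8.33% of its length, and the wide peaks lay inside the genes. Adamts1 and Adamts5 follow each other on the same strand with 53.1 kb in between, of which 4.7% was covered by a single peak at the start of Adamts1. Between Adamts13 and Adamtsl2 (69.8 kb, with Cacfd1, Slc2a6 and Mymk) 12 peaks covered 23.7%.

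The promoter windows from RefSeq comprised the 250 bases before and 50 bases after a start. Windows were matched for 35 of the 50 genes, with 38 windows in all. Windows whose start lay under a peak had a median observed to expected CpG ratio of 0.68 among the members (22 windows) and 0.74 among all genes (15619 windows). For starts not under a peak the ratios were 0.14 (16 windows) and 0.21 (17232 windows). The chromosome 9 cluster supplied 11 of the 16 member windows without a peak, with a median ratio of 0.09. The other 5 had a median of 0.71, so that outside the cluster the ratio was not lower without a peak than with one. Among these 5, Adamtsl3, Mmp24 and Adamts18 had ratios of 1.00, 0.92 and 0.71, and Adamts13 and Mmp21 a ratio of 0.09 each. With a peak over the start, Timp4, Adamts12 and Adamtsl2 had ratios of 0.10, 0.25 and 0.27.

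**Figure D5:**
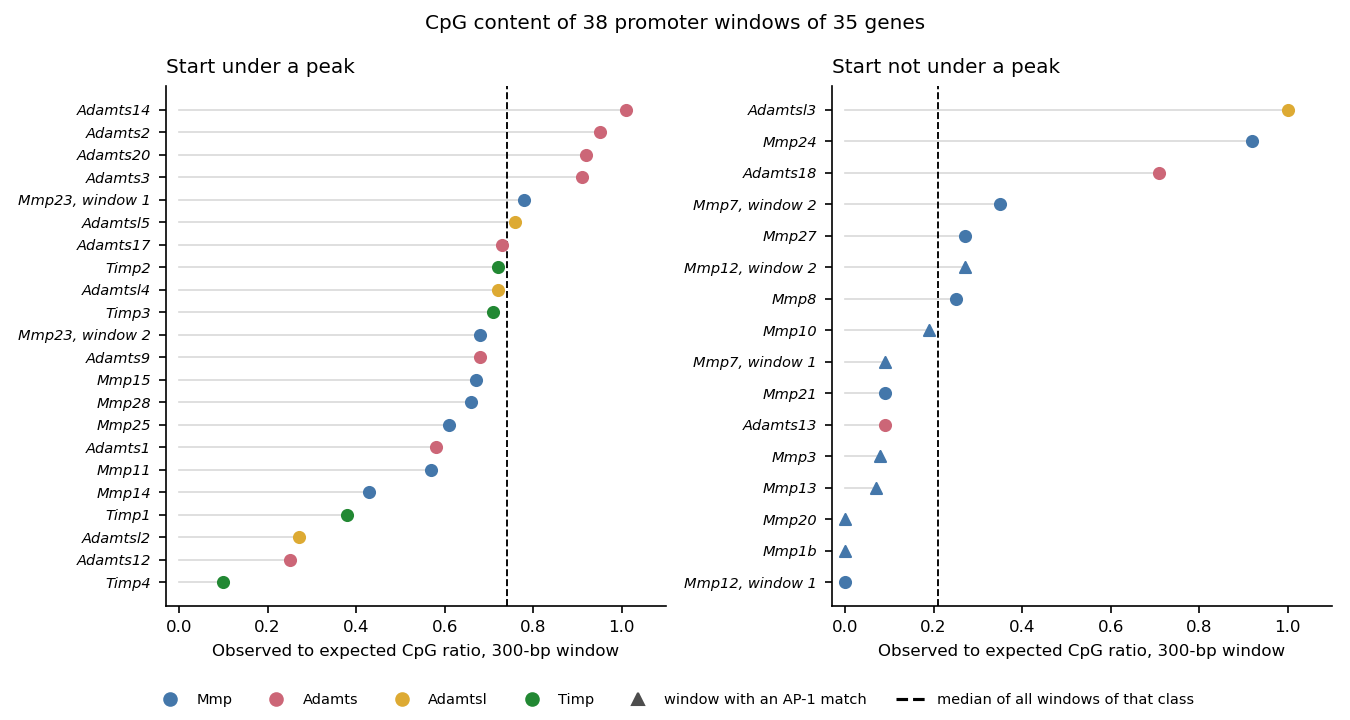
Observed to expected CpG ratio of 38 promoter windows of 300 bp from 35 genes, on the left with the start under a peak and on the right without, coloured by family. Triangles mark windows with an AP-1 match, all 7 of which are on the right, and dashed lines give the median over all windows of that class (0.74 and 0.21).

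The motifs in the printed stretches were counted in all windows, on both strands and with overlapping matches of different motifs counted for each. The AP-1 site TGANTCA was found in 7 of the 38 windows of the members (18.4%), against 7.81% of all 32851 windows and 10.3% of those without a peak over the start. These 7 windows belonged to Mmp13, Mmp12, Mmp1b, Mmp3, Mmp10, Mmp20 and Mmp7, all of the chromosome 9 cluster, and the first base of the match lay between 35 bases (Mmp13) and 95 bases (Mmp20) upstream of the RefSeq start. The TATA box was also found in each of these 7 windows and in 8 of the 11 windows of the cluster, against 13.6% of all windows and 19.3% of those without a peak over the start. Its place varied. In bases upstream of the RefSeq start, the first match ran from 123 (Mmp7, with 2 matches) to -4 (Mmp12, past the start). The GC box was in 0 of the 11 windows of the cluster, against 13.5% of all windows without a peak over the start. Of the member windows with a peak over the start it was in 18 of 22 (81.8%), against 60.1% of all such windows, and of the 5 others outside the cluster in 4. A match describes letters in the window and not binding of a factor.

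Related genes of matrix turnover were counted in the same way, from a list of 51 genes chosen with earlier results of these data known. A promoter peak was present in 42 of them (82.4%, interval 69.7% to 90.4%), against 67.8% of all coding genes. The median width of the widest one was 3534.5 bp, close to the 3430 bp of all coding genes with a promoter peak. The counts below are to be read beside the same 67.8%. Of the other matrix-degrading enzymes and genes grouped with them, 23 of 28 had one. The group also held Plaur, Pcolce, Pcolce2, Thsd4 and Papln, whose products are not enzymes, and all of these had a promoter peak. The widest promoter peaks of the group belonged to the plasminogen activators Plau (16554 bp, coverage 100%) and Plat (10872 bp). Their substrate plasminogen (Plg), Tll2, Mep1a and the cathepsins Ctsk and Ctss had none. Of the inhibitors and activators of matrix proteases 10 of 11 had a promoter peak, including the proprotein convertase gene Furin (5037 bp), the protease inhibitor Serpine2 (7826 bp), and Reck (2206 bp), a membrane-anchored MMP inhibitor. The gene for the plasma inhibitor alpha-2-macroglobulin (A2m) had none. Of the substrates 9 of 12 had one. Versican (Vcan, 3494 bp) and thrombospondin 2 (Thbs2, 11629 bp) were among them, and aggrecan (Acan), neurocan (Ncan) and fibrillin 2 (Fbn2) were not.

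The cell type label was checked against marker genes, to be read beside the 67.8% of all coding genes with a promoter peak. All 10 MuSC markers, among them Pax7 and Myf5, had a promoter peak, with a median width of 12834.5 bp. The markers Itga7 and Cd34, like Ptprc, Pecam1 and Ly6a of the other lists, encode antigens used in the sort. They are therefore no independent check of the label. Of the markers of cells that the sort should remove, 2 of 8 myeloid markers had one (Csf1r and Cd68, but not Ptprc, Itgam, Adgre1, Lyz2, S100a8 or S100a9), and 4 of 6 endothelial markers (not Cdh5 or Tie1). It was also present at 5 of 6 markers of fibro-adipogenic progenitors (not Ly6a) and 2 of 3 tenocyte markers (not Tnmd). The endothelial and tenocyte shares (66.7% each) lay at the share of all coding genes. Several of the proteases and inhibitors described here are also expressed by such cells, and the part of other cells in the peaks was not tested.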

How the data were processed

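H3K56ac ChIP-seq and input libraries of freshly isolated MuSCs were sequenced on an Ion Torrent Proton instrument. The authors aligned reads to mm10 with bowtie, kept single alignments, removed duplicates, called peaks with MACS2, removed blacklisted regions and merged overlapping peaks. Their processing notes also name FastQC, SAMtools and deepTools. The deposited list gives chromosome, start and end of each interval. Its score is 0 in every row, and 0 columns hold values per sample, so that merging may have widened or fused peaks and no test between groups was possible.

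Intervals were intersected (minimum overlap 1 bp) with GENCODE vM21 genes, counting coordinates from 1. The promoter window was 3 kb on either side of every annotated TSS, and the principal transcript was the one so tagged by APPRIS in the annotation, or, where several carried the tag, the longest of them. Coverage was ranked among coding genes within 20% of the length. One further gene that matched the symbols (Mmp1a) is not annotated as protein-coding and was left out. Python 3.11.15, NumPy 2.4.6, SciPy 1.17.1 and Matplotlib 3.10.9 were used. The interval functions were tested on simulated data and made 0 errors in 500 sets.

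All members are named, with coordinates for the 3 widest promoter peaks of each family. The members, related genes, markers and motifs were chosen with earlier results of these data known. RefSeq promoter windows were not matched for 15 members. Alternatives were promoter windows of 1 and 5 kb, coding-transcript TSSs alone, a minimum interval of 500 bp, joining intervals less than 1 kb apart, gene bodies with 3 kb added on either side, and only the bases inside promoter windows. Some of the related and marker genes are not reported here by name.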

Additional observations from a re-analysis of the deposited data

How the results depend on the processing

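The number of members with a promoter peak was 35 under promoter windows of 1, 3 and 5 kb, with intervals of at least 500 bp and with intervals less than 1 kb apart joined. It was 33 with TSSs of coding transcripts alone, since Mmp24 and Adamts13 then had none. The use of the principal transcript alone, an alternative chosen after seeing the data, also gave 33. Over these settings the share of all coding genes ranged from 65.4% to 69.5%. The median widest promoter peak ranged from 3437 bp (principal transcript) to 4695 bp (joined intervals). Over all coding genes with a promoter peak it was 3350 and 4302.5 bp in the same settings. Median coverage ranged from 11.2% (main setting) to 13.6% (3 kb added to gene bodies), against 7.82% and 10.6% over all coding genes. Among the related genes, 38 to 44 had a promoter peak. All 50 alternative values stayed within 1.5 times the main value. No paired analysis was possible because the intervals have no values by library. The paper gives read counts of the libraries, but which of them entered the list is unknown, and so is the depth behind it. The absence of a peak therefore means only that none was listed.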
